A study of Homo sapiens with 16 samples.

Results

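The replication licensing genes considered here were the helicase subunits MCM2, MCM3, MCM4, MCM5, MCM6 and MCM7, the helicase-binding factor MCM10, the loading factors CDC6 and CDT1, and GMNN (geminin), the inhibitor of CDT1. They were chosen by gene symbol from the 42351 genes of the deposited count table, and all 10 passed the expression filter that kept 15067 genes for testing. The libraries came from cells expressing wt MET, named in the sample labels as A549 (a lung adenocarcinoma line), and from cells expressing MET∆14, the form of the receptor tyrosine kinase MET that lacks exon 14, in NCI-H596 (a lung adenosquamous carcinoma line described in the study as carrying only the mutated allele). Both lines were deprived of serum (12 h in the labels, longer in the study's methods) and then given HGF, the ligand of MET, for 0, 3, 6 or 12 h, with 2 biological replicates in each of the 8 conditions. Each MET status is thus represented by 1 cell line, so that line and MET status cannot be told apart. The 0 h libraries were the only ones without HGF, so time in culture and HGF cannot be told apart either. The study abbreviates another line as its wt MET line and does not name the one sequenced, and the identity used here is that of the labels.

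Licensing is the step that prepares a chromosome for a single round of DNA replication. In late mitosis and G1 phase, the origin recognition complex, CDC6 and CDT1 load the ring of MCM2 to MCM7 onto DNA as an inactive double hexamer. In S phase, CDC45, the GINS complex and MCM10 turn the loaded ring into a running helicase, while CDT1 is destroyed and bound by geminin so that no origin is licensed again. Transcription of most licensing genes is known to depend on E2F factors and to be low in cells that have left the cycle.

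The promoters of these genes are described first, for sequence features found in most of those available. The promoter set used here, built on RefSeq start sites (GRCh38.p14), held 8 of the 10 genes and lacked MCM4 and MCM5. The 8 genes had 11 windows reaching from 250 bases before to 50 after the start. An E2F-type motif (TTTCCCGC, TTTCGCGC, TTTGCCGC or TTTGGCGC, on either strand) stood in at least 1 window of 7 of these 8 genes, in 7 of 11 windows, against 3.31% of all 35116 windows of the same length. The gene without a match to these spellings was MCM10. Its window holds TTTGGCGG, which differs from TTTGGCGC in its last base and was not counted. The windows of CDC6 and CDT1 also hold TTTGGCGG. The sequences below run from 120 bases before to 30 after the start, 5′ to 3′ on the strand of the gene, with E2F-type matches in capitals (matches on opposite strands overlap in MCM2 and MCM6). GMNN has 2 such windows and MCM7 has 3, and the one with a match is shown. MCM3, which also had matches, is left out for length. MCM10 is given beside them for comparison.
MCM2, chr3:127598291-127598440, plus strand: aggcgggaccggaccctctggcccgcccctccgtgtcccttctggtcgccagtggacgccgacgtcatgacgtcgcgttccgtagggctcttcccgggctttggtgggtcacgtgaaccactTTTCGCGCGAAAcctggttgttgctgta
MCM6, chr2:135876414-135876563, minus strand: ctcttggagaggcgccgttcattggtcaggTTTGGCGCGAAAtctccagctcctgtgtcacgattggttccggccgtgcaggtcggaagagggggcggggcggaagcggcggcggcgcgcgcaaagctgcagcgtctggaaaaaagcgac
MCM7, chr7:100101368-100101517, minus strand: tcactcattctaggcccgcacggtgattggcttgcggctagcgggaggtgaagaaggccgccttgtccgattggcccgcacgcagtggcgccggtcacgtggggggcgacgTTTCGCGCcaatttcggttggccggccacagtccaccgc
MCM10, chr10:13161438-13161587, plus strand: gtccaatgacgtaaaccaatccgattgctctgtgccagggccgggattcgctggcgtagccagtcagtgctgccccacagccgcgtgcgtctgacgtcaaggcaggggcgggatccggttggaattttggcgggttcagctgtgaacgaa
CDC6, chr17:40287759-40287908, plus strand: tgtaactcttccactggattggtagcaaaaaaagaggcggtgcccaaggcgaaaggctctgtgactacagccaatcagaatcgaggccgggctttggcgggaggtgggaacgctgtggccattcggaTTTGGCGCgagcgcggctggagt
CDT1, chr16:88803669-88803818, plus strand: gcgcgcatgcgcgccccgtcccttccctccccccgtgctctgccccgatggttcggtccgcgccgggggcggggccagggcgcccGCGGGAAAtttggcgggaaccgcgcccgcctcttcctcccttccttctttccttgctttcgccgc
GMNN, chr6:24775293-24775442, plus strand: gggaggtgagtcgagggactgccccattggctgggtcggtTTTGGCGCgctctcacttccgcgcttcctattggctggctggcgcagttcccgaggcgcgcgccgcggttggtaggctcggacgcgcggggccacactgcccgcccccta
The CHR motif (TTTGAA, on either strand), known from genes of mitosis, was in 0 of the 11 windows, against 15.2% of all windows and 10 of 16 windows of a list of mitotic genes described below. The CCAAT box (CCAAT, on either strand) was in 8 of 11 windows of the licensing genes, in 14 of 16 mitotic windows and in 34.6% of all windows. Such matches describe letters in a window and are not evidence of a bound factor.

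Between 10158590 and 23909304 reads were counted on genes per library. Counts were scaled with edgeR's TMM factors, and levels are given as CPM, the counts divided by the scaled library size. Differences are log2 fold changes of edgeR's quasi-likelihood test over all 16 libraries, with standard errors (SE), and a gene was called when its p-value, adjusted by Benjamini and Hochberg over the 15067 genes tested, was under 0.05. As a check of the labels, CDKN2A and MTAP, which are deleted in A549, had at most 0 and 23 counts in the wt MET libraries and at least 1466 and 883 in the MET∆14 libraries. MET itself had 15728 to 32308 counts with wt MET and 4119 to 10341 with MET∆14. Keratin 8 and 18 were abundant in both lines, EPCAM and CDH1 were low with wt MET (13 to 42 and 42 to 174 counts), and the squamous markers KRT5 and TP63 were high in MET∆14 cells only. The leukocyte marker PTPRC (at most 2 counts), the fibroblast markers COL1A2 and DCN (at most 3 and 2) and the endothelial marker PECAM1 (at most 37) were at or near 0, whereas COL1A1 had 149 to 671 counts. No pair of replicates differed as little as counting noise would give, since the chi-square of their counts over its degrees of freedom ranged from 2.36 to 26.9. The widest pair was MET∆14 at 12 h. RNA came from whole cultures, in which fewer cells in a phase of the cycle and less RNA of a gene per cell cannot be told apart.

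Before HGF, every licensing gene stood higher in MET∆14 cells than in wt MET cells. All 10 were called higher at 0 h, against 40.6% of all genes tested, and their median log2 difference was 2.35 against 0.02 over all genes. The loading factor CDT1 (ENSG00000167513, chr16:88803789-88809258 on hg38) was at 3.98 and 4.17 CPM in the wt MET libraries and at 32.7 and 35.9 CPM in the MET∆14 libraries, a log2 difference of 3.07 ± 0.15 (SE, adjusted p = 4.21e-11, edgeR). MCM3 (ENSG00000112118, chr6:52264014-52284881), a subunit of the ring, was at 26.0 and 24.1 CPM with wt MET and at 210.0 and 214 CPM with MET∆14. The smallest differences were those of MCM7 (log2 0.71 ± 0.09) and MCM10 (log2 0.60 ± 0.14). MCM10 was at 8.75 and 8.63 CPM with wt MET and at 12.1 and 14.2 CPM with MET∆14, so the lines did not overlap even for this gene. The other 6 genes differed by between 1.53 (MCM5) and 2.66 (MCM2) on the log2 scale. Together, the 10 genes held 0.0268 to 0.0293% of all counts at 0 h with wt MET and 0.111 to 0.114% with MET∆14.

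**Figure D1:**
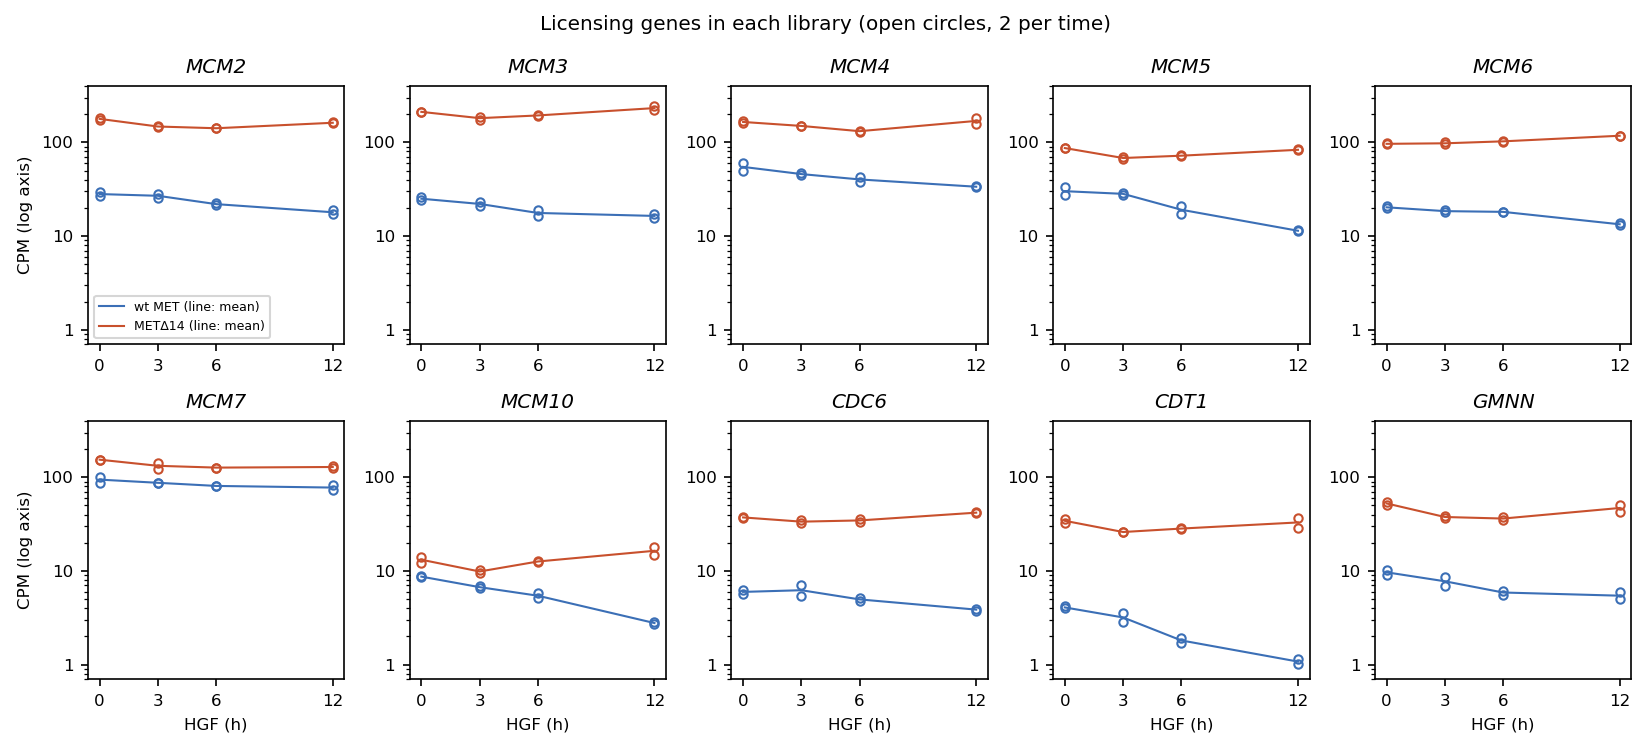
Level of each licensing gene in CPM (log axis) against hours of HGF, with open circles for the 2 libraries of each condition and lines through their means. In cells expressing wt MET (blue) the 12 h libraries lie below the 0 h libraries for all 10 genes, while in cells expressing MET∆14 (red) the levels dip at 3 or 6 h and return towards or past the 0 h level by 12 h for most genes.

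In cells expressing wt MET, the licensing genes fell with time after HGF. None of the 10 was called lower at 3 h (0 of 10, against 7.16% of all genes, and 0 by DESeq2). MCM4 and MCM10 had an unadjusted p under 0.05 (2 of 10), a threshold at which the share of all genes was not counted. At 6 h, 7 of 10 were called lower against 17.8% of all genes, and at 12 h all 10 were called lower against 18.2%. Their median log2 fold change was -0.47 at 6 h and -0.67 at 12 h, where the median over all genes was -0.05 and -0.00. In an F test over the 3 times, 9 of the 10 were called, all but MCM7, against 40.3% of all genes. The group's share of all counts was 0.0168 to 0.0181% at 12 h.

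The loading factor CDT1 changed most in wt MET cells. Its 2 libraries held 3.98 and 4.17 CPM at 0 h, 3.54 and 2.83 CPM at 3 h, 1.94 and 1.68 CPM at 6 h, and 1.14 and 1.01 CPM at 12 h. Every later library was below both 0 h libraries, and the 12 h libraries were below all others. CDT1 fell by 1.16 ± 0.21 (log2) at 6 h (adjusted p = 0.0007, edgeR) and by 1.90 ± 0.23 at 12 h (adjusted p = 2.87e-05), which is 3.73-fold. The 12 h level rests on 24 and 15 counts, against 55 and 59 at 0 h. Geminin, the CDT1 inhibitor encoded by GMNN (ENSG00000112312, chr6:24774931-24786099), was at 10.2 and 9.12 CPM at 0 h, 8.55 and 6.95 CPM at 3 h, 6.17 and 5.59 CPM at 6 h, and 4.95 and 5.92 CPM at 12 h. Its 6 h and 12 h libraries overlapped with each other and lay below all earlier ones. GMNN fell by 0.71 ± 0.15 at 6 h and by 0.84 ± 0.15 at 12 h (adjusted p = 0.00207 and 0.000594). CDC6 (ENSG00000094804, chr17:40287879-40304657), the ATPase that recruits CDT1 and the MCM ring to the origin recognition complex, was at 5.64 and 6.29 CPM at 0 h, 5.41 and 7.03 CPM at 3 h, 5.14 and 4.78 CPM at 6 h, and 3.95 and 3.77 CPM at 12 h. It did not pass the test at 6 h (log2 fold change -0.26, adjusted p = 0.196), although both of its 6 h libraries were below those of 0 h, and it fell by 0.62 ± 0.15 at 12 h (adjusted p = 0.00541).

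Among the 6 subunits of the ring, MCM5 (ENSG00000100297, chr22:35400134-35425431) fell most in wt MET cells. It was at 27.2 and 33.1 CPM at 0 h, 29.0 and 27.5 CPM at 3 h, 20.8 and 17.4 CPM at 6 h, and 11.3 and 11.5 CPM at 12 h. The 3 h libraries lay between those of 0 h, and the 12 h libraries were the lowest. MCM5 fell by 0.66 ± 0.11 at 6 h and by 1.40 ± 0.11 at 12 h (adjusted p = 0.000292 and 7.03e-07, edgeR). MCM2, MCM3, MCM4 and MCM6 fell by 0.60 to 0.70 at 12 h, from 1.51-fold for MCM6 to 1.63-fold for MCM4. MCM2 (ENSG00000073111, chr3:127598410-127622436), for example, was at 26.6 and 29.6 CPM at 0 h and at 18.8 and 17.1 CPM at 12 h. MCM6 (ENSG00000076003, chr2:135839626-135876443) was not called at 6 h (18.2 and 18.1 CPM against 20.8 and 19.7 CPM at 0 h, adjusted p = 0.162), and fell to 13.7 and 13.1 CPM by 12 h. MCM7 (ENSG00000166508, chr7:100092233-100101940) changed least, from 87.0 and 101.6 CPM at 0 h to 82.3 and 72.8 CPM at 12 h, a fall of 0.28 ± 0.09 on the log2 scale (adjusted p = 0.0289). Its groups did not overlap, and this call is lost when replicate 2 of 0 h (log2 fold change -0.17) or of 12 h (-0.20) is left out. Of the exon bases of MCM2, 23.6% are overlapped by another annotated gene on the opposite strand, as are 7.90% of those of MCM7 by AP4M1. The use of strand in the counting is not given in the sources used here, and both genes are to that extent uncertain.

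MCM10 (ENSG00000065328, chr10:13161558-13211110), which acts after loading when the helicase is switched on, was at 8.75 and 8.63 CPM at 0 h in wt MET cells, 6.54 and 6.87 CPM at 3 h, 5.75 and 5.11 CPM at 6 h, and 2.86 and 2.69 CPM at 12 h. Each time point lay below the one before it with no overlap. MCM10 fell by 0.67 ± 0.15 at 6 h and by 1.64 ± 0.16 at 12 h (adjusted p = 0.00328 and 5.31e-06, edgeR), which is 3.12-fold at 12 h. Between 6 and 12 h, MCM5, MCM6 and MCM10 fell further (3 of 10, against 5.98% of all genes), by 0.75, 0.44 and 0.96 on the log2 scale. Leaving out replicate 2 of the untreated wt MET cells gave 5 such calls, leaving out replicate 1 of the 12 h MET∆14 cells gave 5 and leaving out their replicate 2 gave 6. At 6 h against 0 h, the calls of MCM2 and MCM4 were lost when replicate 2 of either wt MET time point was left out (5 of 10 in each case).

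In cells expressing MET∆14, up to 5 of the 10 licensing genes were called lower at 3 and 6 h, and 1 at 12 h. At 3 h, MCM2, MCM5, MCM10, CDT1 and GMNN were called lower (5 of 10, against 16.1% of all genes), with a median over the 10 genes of -0.25 against -0.05 over all genes. At 6 h, MCM2, MCM4, MCM5, MCM7 and GMNN were called lower (5 of 10, against 22.5%), with a median of -0.27 against -0.04. At 12 h, MCM7 was called lower (1 of 10, against 20.1%, and 0 by DESeq2), MCM6 was called higher (1 of 10, against 18.3%), and the median was -0.01 against -0.02. The number lower at 12 h was 0 when any of 7 libraries was left out (both of wt MET at 3 h, both at 6 h, both of MET∆14 at 0 h and its replicate 2 at 6 h), and both numbers were 2 when replicate 2 of MET∆14 at 12 h was left out. In the F test over the 3 times, 9 of 10 were called, all but CDC6, against 54.1% of all genes, and 5, 6 and 6 were called when replicate 1 of 0 h, replicate 2 of 0 h or replicate 1 of 3 h was left out. Leaving out either replicate of 6 h also gave 6. The group's share of all counts was 0.0858 to 0.0943% at 3 and 6 h and 0.108 to 0.111% at 12 h.

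GMNN moved most in MET∆14 cells. It was at 51.1 and 53.9 CPM at 0 h, 38.1 and 37.1 CPM at 3 h, 37.4 and 35.0 CPM at 6 h, and 42.9 and 51.0 CPM at 12 h. The 3 h and 6 h libraries lay below all others, and the 12 h libraries reached up to, but not into, the 0 h range. GMNN fell by 0.48 ± 0.11 at 3 h and by 0.54 ± 0.11 at 6 h (adjusted p = 0.00382 and 0.00108, edgeR), and at 12 h its log2 fold change was -0.17 (adjusted p = 0.253). CDT1 was at 32.7 and 35.9 CPM at 0 h, 25.8 and 26.2 CPM at 3 h, 28.7 and 27.9 CPM at 6 h, and 28.7 and 37.1 CPM at 12 h, where the replicates spanned the whole 0 h range. It fell by 0.40 ± 0.12 at 3 h (adjusted p = 0.0204) and did not pass at 6 h (-0.28, adjusted p = 0.0724) or at 12 h (-0.07, adjusted p = 0.691). CDC6 was at 36.8 and 37.7 CPM at 0 h, 32.2 and 34.9 CPM at 3 h, 36.0 and 33.2 CPM at 6 h, and 41.4 and 42.3 CPM at 12 h. These levels lay below 0 h at 3 and 6 h and above it at 12 h, but passed the test at no time (adjusted p from 0.22 to 0.416).

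Of the ring subunits in MET∆14 cells, MCM2 fell at 3 h and at 6 h (log2 -0.27 ± 0.08 and -0.33 ± 0.08, adjusted p = 0.0144 and 0.00266, edgeR) and was at 159 and 165 CPM at 12 h, against 182 and 175 CPM at 0 h. MCM5 fell by 0.35 ± 0.10 at 3 h and by 0.27 ± 0.09 at 6 h, and its 12 h libraries (84.7 and 82.0 CPM) came close to those of 0 h (87.5 and 86.5 CPM). MCM6 showed no dip. It was at 95.2 and 97.9 CPM at 0 h, 99.99 and 95.6 CPM at 3 h, 101 and 105 CPM at 6 h, and 118 CPM in both libraries at 12 h. Its 12 h libraries were above all others, and MCM6 rose by 0.29 ± 0.07 on the log2 scale (adjusted p = 0.00525), a rise that was not called when replicate 1 of 0 h was left out (0.26). MCM7 was at 154 CPM in both 0 h libraries and at 132 and 125 CPM at 12 h, below them without overlap (-0.26 ± 0.09, adjusted p = 0.0354). MCM10 was at 12.1 and 14.2 CPM at 0 h, 10.3 and 9.45 CPM at 3 h, 12.4 and 12.9 CPM at 6 h, and 18.0 and 14.8 CPM at 12 h. It fell at 3 h (-0.43 ± 0.14, adjusted p = 0.027), and its 12 h libraries, although above both 0 h libraries, did not pass (0.32 ± 0.13, adjusted p = 0.066).

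The number of early calls in MET∆14 cells moved with single libraries. At 3 h, the number called lower was 3 with replicate 1 of 0 h or replicate 2 of 3 h left out, 1 with replicate 2 of 0 h or replicate 1 of 3 h left out, and 3 by DESeq2. At 6 h, it was 3 with replicate 1 of either time point left out and 2 with replicate 2 of either left out. The genes called at 3 or 6 h kept their direction in each of these cases. By position alone, both libraries lay below both 0 h libraries for 9 of 10 genes at 3 h (41.0% of all genes tested), 8 of 10 at 6 h (41.3%) and 4 of 10 at 12 h (34.0%), where 4 others, MCM3, MCM6, MCM10 and CDC6, lay above (27.8%). With wt MET, 6 of 10 lay below at 3 h (31.4%), 10 of 10 at 6 h (37.8%) and 10 of 10 at 12 h (34.8%).

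**Figure D2:**
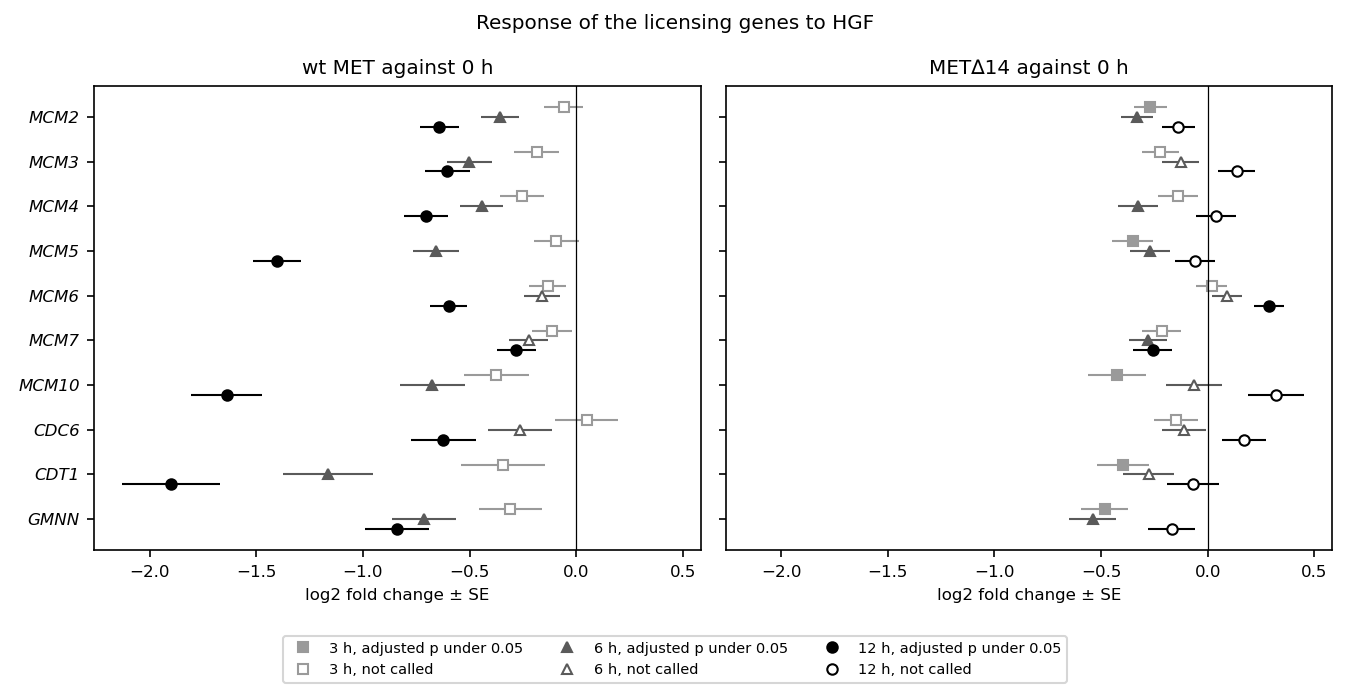
Log2 fold change against 0 h of the same line, with SE bars, for each licensing gene at 3 h (squares), 6 h (triangles) and 12 h (circles) of HGF; filled symbols mark an adjusted p under 0.05. With wt MET the 12 h symbols are all filled and lie between -1.90 and -0.28, whereas with MET∆14 they lie between -0.26 and 0.32 around 0.

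From 6 to 12 h, the fitted levels of all 10 genes in MET∆14 cells went up, by 0.02 (MCM7) to 0.39 (MCM10) on the log2 scale. MCM3, MCM4 and GMNN passed the test (3 of 10, against 8.3% of all genes), and the median was 0.24 against -0.02 over all genes. An unadjusted p under 0.05 was reached by 8 of 10. The share of all genes at that looser threshold was not counted, and the 8.3% does not apply to it. MCM3 went from 193 and 195 CPM at 6 h to 244 and 221 CPM at 12 h, MCM4 (ENSG00000104738) from 133 and 130.2 CPM to 181 and 158 CPM, with no overlap in either gene. No gene was called (0) when either replicate of MET∆14 at 6 h was left out, and 5 were called with DESeq2's size factors in place of TMM.

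The responses of the lines were compared directly by testing the difference of their log2 fold changes, MET∆14 minus wt MET. The difference over the 3 times was called for 9 of 10 licensing genes, all but MCM7, against 37.6% of all genes (edgeR F test). No gene was called at 3 h (0 of 10, against 8.93% of all genes; 0 of 10 at an unadjusted p under 0.05, and 0 by DESeq2). At 6 h, MCM3, MCM10 and CDT1 had the higher response in MET∆14 (3 of 10, against 16.4%), with differences of 0.38, 0.61 and 0.89. At 12 h, 9 of 10 did, against 13% of all genes, with a median difference of 0.77 against 0.01 over all genes. The largest 12 h differences were those of MCM10 (1.96 ± 0.21, adjusted p = 1.59e-05), CDT1 (1.83 ± 0.26, adjusted p = 0.000159) and MCM5 (1.34 ± 0.15, adjusted p = 1.87e-05). GMNN differed by 0.67 ± 0.19 (adjusted p = 0.0161), a call that was lost when replicate 1 of any of 3 conditions was left out (wt MET at 0 and 12 h and MET∆14 at 0 h). The 95% interval of the difference for MCM7 ran from -0.25 to 0.30, so that larger differences in either direction lie outside it. The 6 h calls were the least stable: 0 were called when replicate 2 of wt MET was left out at 0 h or at 6 h, and 1 when either library of wt MET at 12 h, of MET∆14 at 3 h or of MET∆14 at 6 h, or replicate 1 of MET∆14 at 0 h, was left out.

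The gap between the lines widened from 0 to 12 h for the same 9 genes. The CPM ratio of MET∆14 to wt MET for CDT1 was 8.41 at 0 h, 8.17 at 3 h, 15.6 at 6 h and 30.6 at 12 h. For MCM10 it was 1.52 at 0 h and 5.91 at 12 h, and for MCM5 2.89 and 7.31. For MCM7 it was 1.63 and 1.66. Line and time enter the study's own formula as additive terms, which gives both lines a common time course. Fitted in that form with edgeR to the 2 lines, the model called MCM7 and GMNN lower (2 of 10, against 17.2% of all genes). The F test over the 3 time terms has no direction, and lower means that their mean was below 0. The study used DESeq2, and its transcriptomes also covered amplified wt MET cells. Leaving out replicate 1 of MET∆14 at 12 h gave 4 and leaving out replicate 2 of MET∆14 at 0 h gave 0. Leaving out any other single library gave 1, except for replicate 1 of MET∆14 at 3 h, which left it at 2, and replicate 2 of MET∆14 at 12 h, which gave 3.

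CDT1 and its inhibitor changed in unequal measure. The ratio of CDT1 counts to GMNN counts, which needs no scaling between libraries, was 0.390 and 0.457 at 0 h in wt MET cells, 0.414 and 0.407 at 3 h, 0.314 and 0.301 at 6 h, and 0.231 and 0.170 at 12 h. The 6 h and 12 h ratios lay below all earlier ones. In MET∆14 cells it was 0.639 and 0.665 at 0 h, 0.677 and 0.706 at 3 h, 0.768 and 0.797 at 6 h, and 0.670 and 0.727 at 12 h, and no library overlapped with wt MET. A comparison of 2 with 2 libraries by exact permutation cannot give a p-value under 1 in 3, and the ratios are given as a description. They do not correct for the different lengths of the transcripts.

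**Figure D3:**
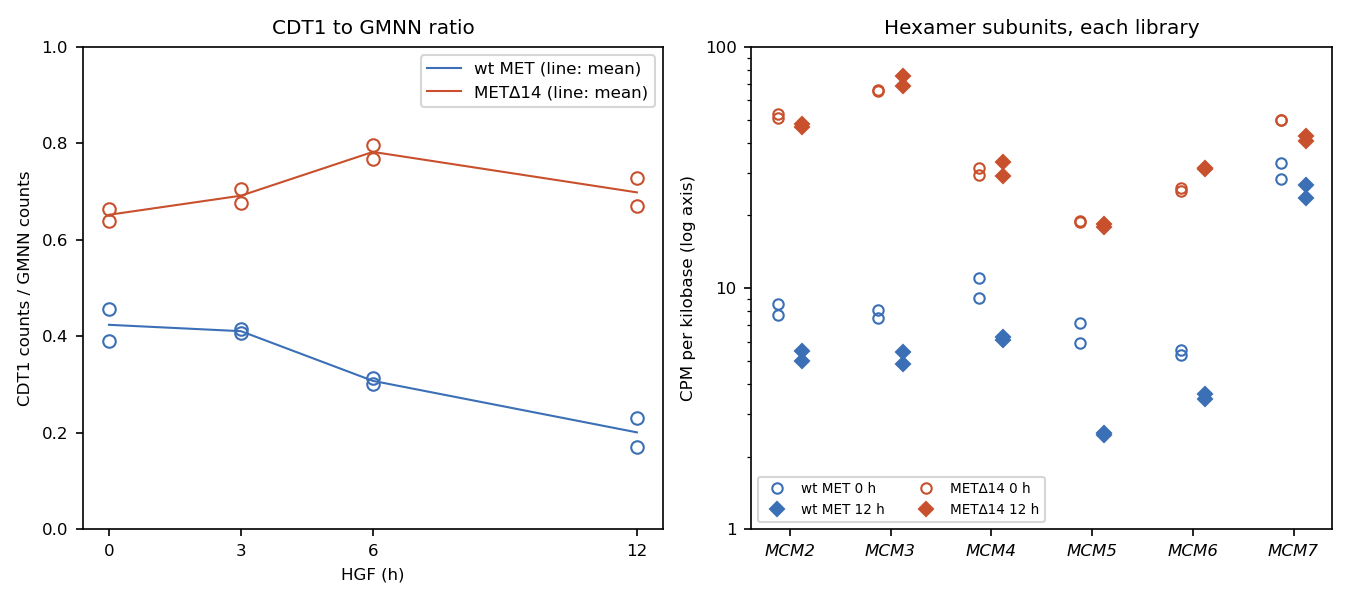
Left, ratio of CDT1 counts to GMNN counts in each library (circles) with lines through the means, against hours of HGF. Right, level of each ring subunit in CPM per kilobase of its longest annotated transcript (log axis) at 0 h (open circles) and 12 h (diamonds). The ratio ends at 0.231 and 0.170 with wt MET and at 0.670 and 0.727 with MET∆14, and with wt MET the spread of the subunits goes from 5.66-fold to 10.1-fold with the longest transcript, but from 5.88-fold to 5.45-fold with the median transcript length, which is not drawn.

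The ring holds its 6 subunits in equal number, and their transcript levels were compared per kilobase of the longest annotated transcript (GENCODE v44). In wt MET cells at 0 h, MCM7 was highest at 30.6 ± 3.34 CPM per kilobase (SD, n = 2), followed by MCM4 at 10.1 ± 1.41, MCM2 at 8.18 ± 0.63, MCM3 at 7.81 ± 0.41, MCM5 at 6.55 ± 0.90 and MCM6 at 5.40 ± 0.21. MCM7 stood apart from MCM4 by more than their spread, MCM2 and MCM3 did not differ beyond theirs, and MCM4 differed from MCM2, and MCM5 from MCM3, by about their spread. The highest subunit stood 5.66-fold above the lowest at 0 h and 10.1-fold at 12 h, when MCM5 was the lowest at 2.48 ± 0.03. This widening depended on the length used, since with the median transcript length of each gene the spread was 5.88-fold at 0 h and 5.45-fold at 12 h, and MCM3 was the lowest at 12 h. In MET∆14 cells the order at 0 h was MCM3 (66.0 ± 0.78), MCM2 (51.9 ± 1.43), MCM7 (49.9 ± 0.03), MCM4 (30.4 ± 1.44), MCM6 (25.7 ± 0.51) and MCM5 (18.9 ± 0.15), with a spread of 3.49-fold at 0 h and 4.0-fold at 12 h. Outside the ring, CDT1 (1.53 ± 0.05), CDC6 (1.31 ± 0.10) and MCM10 (1.89 ± 0.02) were the lowest of the 10 genes in wt MET cells at 0 h, as they were in MET∆14 cells (12.9 ± 0.85, 8.16 ± 0.15 and 2.87 ± 0.32), and GMNN lay among the ring subunits (7.65 ± 0.61 and 41.6 ± 1.59). The order also depended on the length: with the median transcript length, MCM5 was first in wt MET cells and MCM2 first in MET∆14 cells at 0 h.

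The genes that act before and after the ring were followed as lists. Of the 6 genes of the origin recognition complex, which marks origins and receives CDC6, ORC1, ORC3 and ORC6 were called lower in wt MET cells at 12 h (by 0.66, 0.61 and 0.93 on the log2 scale, 3 of 6 against 18.2% of all genes), and ORC3 in MET∆14 cells (by 0.65, 1 of 6 against 20.1%). ORC1, the subunit that is known to vary through the cycle, was at 13.1 ± 0.84 CPM at 0 h in MET∆14 cells, fell to 7.09 ± 0.70 at 3 h and was at 16.4 ± 0.86 at 12 h. The list's median at 12 h was -0.31 with wt MET and 0.16 with MET∆14. CDC45 and the 4 GINS genes, which join the ring to form the running helicase, had the lowest median of the replication lists in wt MET cells. At 12 h 4 of 5 were called lower (against 18.2% of all genes), all but GINS3, with a median of -1.39, and 2 when genes under 10 counts in any library were left out. CDC45 was at 3.86 ± 0.44 CPM at 0 h and 0.450 ± 0.030 at 12 h in wt MET cells, where CDC45 fell by 3.09 on the log2 scale, and at 29.0 ± 0.84 and 23.8 ± 0.62 CPM in MET∆14 cells (-0.29, adjusted p = 0.058, edgeR). The median of the 5 genes in MET∆14 cells was -0.35 at 3 h, -0.41 at 6 h and 0.00 at 12 h.

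Of 12 genes of origin firing and fork protection, 7 were called lower in wt MET cells at 12 h (against 18.2% of all genes), among them TICRR (-2.21), TIMELESS (-1.44) and CDC7 (-1.19), the kinase that phosphorylates the loaded ring. Leaving out replicate 1 of wt MET at 0 h gave 3 and leaving out replicate 2 gave 4. CDC7 was low with wt MET, at 1.79 ± 0.23 CPM at 0 h and 0.775 ± 0.049 CPM at 12 h. In MET∆14 cells CDC7 was at 29.3 ± 3.6 CPM at 0 h, 17.4 ± 0.77 at 3 h and 29.3 ± 4.7 at 12 h, and the list's median was -0.40 at 3 h and 0.07 at 12 h. Of 23 genes of replication fork synthesis, 13 were called lower with wt MET at 12 h (against 18.2% of all genes), with PRIM1, a primase subunit, at -1.98 and POLA2, of the same complex, at -1.45. PRIM1 was low there, at 3.83 ± 0.52 CPM at 0 h and 1.03 ± 0.64 CPM at 12 h, with its 12 h replicates far apart. In MET∆14 cells 3 of the 23 (LIG1, RPA2 and RPA3) were called lower at 12 h, a smaller share than the 20.1% of all genes, and 10 when replicate 2 of that time point was left out. Of 11 genes of the turnover and release of licensing factors, 3 were called lower with wt MET at 12 h (against 18.2% of all genes). With MET∆14, 6 were called lower and 3 higher at 3 h (against 16.1% and 15.5%). At 12 h, 4 were called lower and 2 higher (against 20.1% and 18.3%). SKP2, a ubiquitin ligase subunit that targets CDT1, was lower with wt MET at 3 h (-1.17) and near its 0 h level at 12 h (-0.07). Its levels were low, at 5.70 ± 1.66 CPM at 0 h, 2.49 ± 0.44 at 3 h and 5.46 ± 0.37 at 12 h, and its 0 h replicates lay far apart. CCNF, which targets CDC6, was lower with wt MET at 12 h (-0.76). In MET∆14 cells CCNF was at 69.1 ± 2.2 CPM at 0 h, 36.7 ± 2.7 at 3 h and 73.4 ± 7.5 at 12 h. LRWD1, which binds the origin recognition complex, and MCMBP, which binds the MCM ring, were higher in these cells at 12 h (0.39 and 0.42). Of 4 further genes with MCM in their symbols, MCM8 was lower with wt MET at 12 h (-0.50), a call lost when replicate 1 of 0 h or either replicate of 12 h was left out. MCM3AP was higher (0.43) with MET∆14 at 12 h. Its level there was 134 ± 23.7 CPM, against 99.2 ± 3.9 CPM at 0 h, so its replicates at 12 h lay far apart. MCMDC2 was also called lower with MET∆14 at 12 h, but rests on a handful of counts (0.731 ± 0.020 CPM at 0 h and 0.109 ± 0.155 CPM at 12 h), and no fold is given.

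Of a list of 18 mitotic genes, most were still called lower with MET∆14 at 12 h. In wt MET cells, 18 of 18 were called lower at 12 h (against 18.2% of all genes), with a median of -1.76. In MET∆14 cells, 17 of 18 were called lower at 3 h (against 16.1%) and at 6 h (against 22.5%), and 16 of 18 at 12 h (all but BUB1B and CENPE, against 20.1%), with medians of -0.98, -0.83 and -0.72. KIF20A, a mitotic kinesin, stood at 60.1 ± 0.08 CPM at 12 h, against 170 ± 3.2 CPM at 0 h, which passed the test (adjusted p = 9.8e-08, edgeR). CENPF, named by the same rule, was at 222 ± 74 CPM at 12 h, against 457 ± 15 CPM at 0 h. Its replicates at 12 h lay far apart, unlike those of KIF20A. At 12 h in MET∆14 cells 16 of 18 mitotic genes were thus called lower, against 1 of 10 licensing genes. The difference between these lists was not tested. From 6 to 12 h with MET∆14, 3 of the 18 were called higher (against 8.3% of all genes) and 3 lower (against 10.3%). The median was 0.12. Like the licensing genes, 18 of 18 mitotic genes were called higher in MET∆14 at 0 h (against 40.6%). Their response at 12 h was also higher in MET∆14 for 14 of 18 (against 13%), with a median difference of 0.84.

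**Figure D4:**
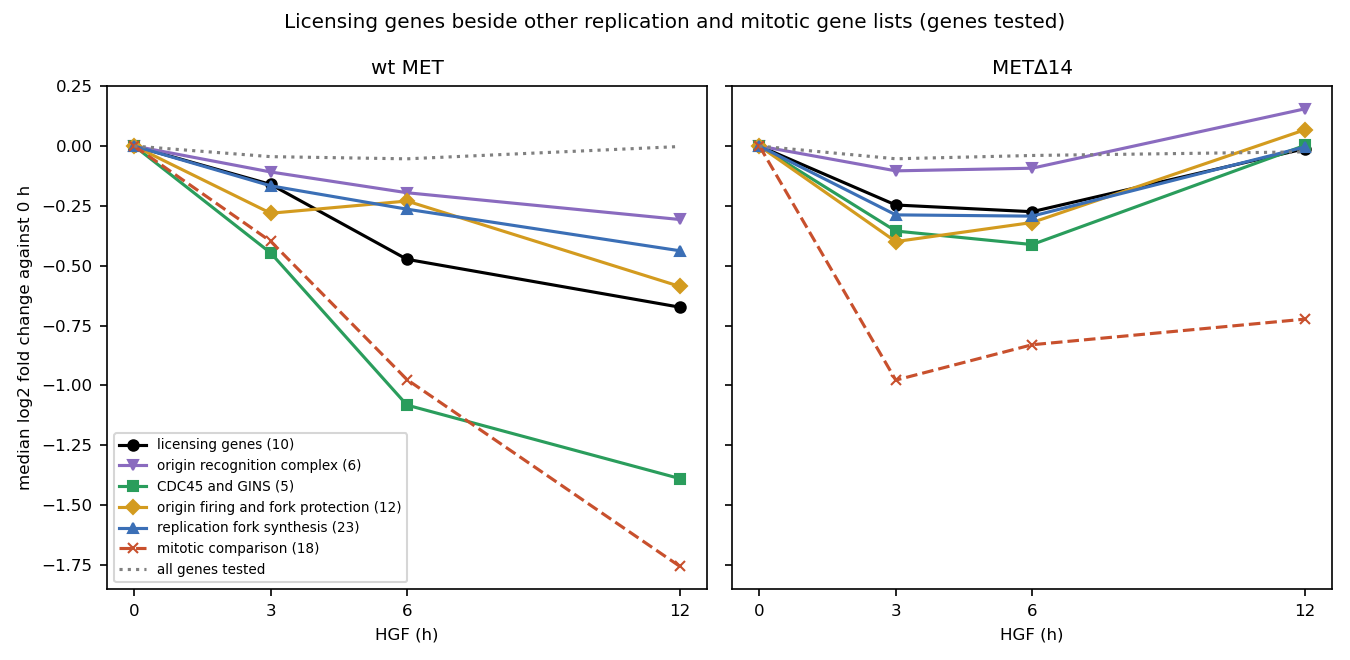
Median log2 fold change against 0 h of the same line for the licensing genes, 4 other replication lists, a mitotic list and all genes tested (dotted), with the number of genes in brackets. With MET∆14 the licensing median returns to -0.01 at 12 h and the mitotic median stays at -0.72, whereas with wt MET both are lowest at 12 h (-0.67 and -1.76).

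The likeness of the licensing genes to their common course is given as a description. The correlation of each gene's log2 CPM, centred within its line, with the mean of the 10 over the 16 libraries ran from 0.70 for MCM7 to 0.97 for MCM5; each gene is part of that mean. The comparison covered 9638 genes, which were the 10 themselves and all others whose log2 CPM averaged 3 or more. The 5 others most alike were SHCBP1 (r = 0.987), TACC3 (0.973), PKMYT1 (0.969), POLA2 (0.966) and ESPL1 (0.965). They were chosen for this likeness, and the libraries share their scaling and their 0 h samples, so the values describe the pattern and carry no test. SHCBP1 was -1.66 at 12 h in wt MET cells, and -0.50 at 3 h and -0.01 at 12 h in MET∆14 cells. TACC3 was still called lower in MET∆14 cells at 12 h (-0.38, adjusted p = 0.00445, edgeR). PKMYT1 (-0.22), POLA2 (0.17) and ESPL1 (-0.34) were not called there. Over the 8 condition means in place of the libraries, SHCBP1 was again first (r = 0.994), followed by PFKL, TTYH3, SH3GLB2 and CHEK1.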

How the data were processed

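The 16 RNA-seq libraries were biological duplicates of 2 lines at 4 times of HGF. The submitters' processing notes name STAR 2.5.0, RSEM 1.3.2 and hg38, and the authors deposited counts per gene as whole numbers without normalization, which may be rounded RSEM estimates. The annotation and the use of strand are not given in the sources used here. Amplified wt MET cells are outside the samples used here. The count table writes the wt MET line name slightly differently from the titles, and columns were matched by the rest of the name.

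The fits used edgeR 4.0.16 (limma 3.58.1) in R 4.3.3, with filterByExpr (minimum count of 10, minimum total of 15), TMM, and a robust quasi-likelihood fit with 1 coefficient per condition over all 16 libraries, with Benjamini-Hochberg adjustment over 15067 genes and a threshold of 0.05. Log2 CPM used a prior count of 2. P-values rest on the spread between duplicates, estimated for each gene once over all 8 conditions. Nothing in the labels describes the duplicates further. No p-value measures the spread of a single pair. The widest pair, MET∆14 at 12 h, shares the common estimate (chi-square over degrees of freedom of 26.9, against 2.36 to 7.74 for the others). Errors can therefore be too small for contrasts with that condition and too large for others. Depth limits low genes, whose error is that of counting and more.

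All 10 members were named. From each other list the rule named at most 2 genes per line with the largest mean change among those called in that line, and outside the members the 5 genes most alike; GINS3, RPA2, RPA3, BUB1B and CENPE were named after their values were seen, to spell out counts. Members and lists were chosen with earlier results of these data known.

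The alternatives were DESeq2 1.42.0, its size factors in edgeR, no filter, at least 10 counts in every library, a replicate block, each line alone, each library left out, the median transcript length, and condition means. The scripts were tested on simulated counts. Intervals of 95% use the t quantile at each gene's total degrees of freedom. Promoter windows came from RefSeq (GRCh38.p14), gene coordinates (1-based, hg38) and transcript lengths from GENCODE v44. Figures were drawn with Python 3.11.15 and matplotlib 3.10.9.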

Additional observations from a re-analysis of the deposited data

Results flagged for a closer look

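The response to HGF differed between the lines for 9 of the 10 licensing genes, against 37.6% of all genes tested. The test was edgeR's F test over the differences at 3, 6 and 12 h, and only MCM7 was not called (adjusted p = 0.836). The adjusted p was 7.35e-06 for MCM5, 1.55e-05 for MCM10, 0.000117 for MCM6 and 0.000156 for CDT1. It was 0.00103 for MCM3, 0.00168 for MCM2 and 0.00228 for MCM4, and 0.00324 for CDC6 and 0.0123 for GMNN. In the wt MET libraries all 9 were below their 0 h libraries at 12 h (34.8% of all genes tested). In the MET∆14 libraries MCM3, MCM6, MCM10 and CDC6 were above theirs (27.8%), MCM2, MCM5 and GMNN were below theirs (34.0%), and MCM4 and CDT1 overlapped with theirs. The lines also differ in depth of these genes, as CDT1 had 15 to 59 counts per library with wt MET and 317 to 722 with MET∆14, and the part of depth in the result was not tested.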

How the results depend on the processing

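The falls in wt MET at 6 and 12 h, the differences at 12 h and over all times, and the gap between the lines at 0 h were within 1.5 times of their counts under every setting tried, with 10 of 10 genes lower at 12 h under all settings that kept all 16 libraries. The MET∆14 counts moved more, and the cause was not tested. With DESeq2, 3 genes were lower in MET∆14 at 3 h and 0 at 12 h. With DESeq2's size factors in edgeR, 0 were lower and 2 higher at 12 h, 5 rose from 6 to 12 h, and the additive model called 1. With no filter, 3 were lower at 3 h and 0 at 12 h in MET∆14, and 1 differed at 6 h. With at least 10 counts in every library, 6 rose from 6 to 12 h and the MCM7 difference at 12 h was -0.021. With each line fitted alone, 2 were lower at 3 h, 0 at 12 h, and 1 rose from 6 to 12 h.

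With single libraries left out, the wt MET counts ran from 0 to 1 (3 h), 5 to 8 (6 h), 9 to 10 (12 h) and 3 to 6 (6 to 12 h). The MET∆14 counts ran from 1 to 7 lower at 3 h, 2 to 6 at 6 h and 0 to 2 at 12 h, 0 to 2 higher at 12 h, 0 to 4 from 6 to 12 h and 5 to 9 at any time. Differences ran from 0 to 4 at 6 h and 8 to 9 at 12 h, and the additive model from 0 to 4. Small values that changed sign were, at 3 h in wt MET, MCM2 (-0.14 to 0.049), CDC6 (-0.12 to 0.26), MCM5 (-0.23 to 0.082) and MCM7 (-0.22 to 0.030). The mean of MCM8 ran from -0.32 to 0.00063. In MET∆14, MCM6 at 3 h ran from -0.0080 to 0.049, MCM10 at 6 h from -0.18 to 0.050, MCM4 at 12 h from -0.063 to 0.12, and CDT1 at 12 h from -0.27 to 0.11. The MCM7 difference at 12 h ran from -0.093 to 0.13.

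With the replicate block, the additive model called 1 gene, and no other count moved by over 1.5 times. Same-numbered libraries of different conditions correlated at -0.159 to 0.111 in their deviations (28 pairs of conditions), so the numbers were not taken as pairs. CDT1, CDC6 and MCM10 in wt MET rest on few counts (15 to 122 per library), where small changes were not detectable.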
